A study of Mus musculus with 7 samples.

Results

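Resting muscularis macrophages were described from the 4 libraries prepared after sham surgery, out of 7 RNA-seq libraries in the series. The members were chosen by their label alone: every library whose title and treatment field name sham surgery was used, and no other library entered any level below, although the table's own filter on low values spans all 7. They are named Sham 1 to Sham 4 after the replicate numbers in the titles, which term them biological replicates without saying whether each came from 1 animal or from several. All 17209 genes listed in the count table were examined.

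The cells came from C57BL6/J mice, the only genotype the labels give, 24 h after sham surgery. The muscle layer was peeled from the small intestine, and CX3CR1-GFP+ cells, in which a green fluorescent protein reports the fractalkine receptor gene Cx3cr1, were sorted from it. The labels give no age and name no reporter allele, so whether the reporter replaced a copy of Cx3cr1 is not known here, which limits the reading of that gene's own transcript. Sham animals were operated on, so the baseline is that of mice a day after surgery and not of untouched mice. Each library started from 2.0 ng of total RNA, ribosomal RNA was depleted by cleavage, and the labels name no molecular identifiers. The question addressed is what these macrophages express at rest: which genes are most abundant, which receptors, transcription factors and secreted factors they carry, and how far the 4 libraries differ.

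Muscularis macrophages lie between the smooth muscle layers of the gut wall and around the myenteric plexus, the nerve network that drives peristalsis. They depend on signalling through the colony-stimulating factor 1 receptor Csf1r, take up dying cells, and are known to exchange signals with enteric neurons, among them bone morphogenetic protein 2 made by the macrophage. Macrophage identity in general rests on PU.1 (encoded by Spi1) together with Maf, Mef2 and interferon regulatory factors, while immediate early factors such as Fos and Egr1 answer within minutes to stimulation and also to tissue digestion.

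Levels between genes were compared per length, as counts per kilobase of exon scaled for library size (RPKM; without the length, CPM), with library totals adjusted by the trimmed mean of M values (TMM). The exon length was the union of all annotated exons of a gene. Each value below is a level, given per library or as mean ± SD with n = 4, and because there was a single group no test was made. Genes named beyond the highest of each class or list were picked from the lists after their values were seen. The 4 totals were 19238209, 22425640, 18873893 and 34432716 counts in Sham 1 to Sham 4. A gene with 3 counts, the most that an observed 0 allows, corresponds to between 0.0871 CPM in Sham 4 and 0.159 CPM in Sham 3, and that limit covers counting error only.

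Sham 1 stood apart from the other libraries. Across 17209 genes its Pearson correlations of log2(CPM + 1) with the others lay between 0.948 and 0.954, against 0.962 to 0.974 among Sham 2, Sham 3 and Sham 4. Over the genes with a mean of 10 CPM or more, the first principal component held 55.8% of the variance. It placed Sham 1 at 36.5, with the others at -2.0, -12.1 and -22.4. Mitochondrially encoded genes took 8.43% of the counts in Sham 1 and 4.34% to 5.35% in the others. Within them the mitochondrial ribosomal RNAs took 5.82% in Sham 1 and 2.42% to 3.23% in the others.

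The libraries also differed in sex-linked transcripts. Xist, the X-inactivation RNA made in female cells, was at 1635, 4118, 3535 and 5601 CPM in Sham 1 to Sham 4. The 6 listed genes of the Y chromosome together reached 348 CPM in Sham 1 and 238 CPM in Sham 3, but 12.6 CPM in Sham 2 and 1.99 CPM in Sham 4. Ddx3y, a Y-linked RNA helicase, ran at 127, 5.06, 86.0 and 0.114 CPM. Sham 1 and Sham 3 thus held Xist together with the higher Y-linked levels, and the labels give no sex for any library. The part of sex in any value below was not tested.

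The label was checked against markers of the sorted population, and all 6 were present in each library. Cd74, the class II invariant chain, stood at 2952, 4292, 2629 and 3181 RPKM. Adgre1, which encodes the macrophage surface protein F4/80, stood at 303, 506, 450 and 443 RPKM. Csf1r ran at 267, 441, 459 and 500 RPKM, lowest in Sham 1, and its mean of 417 ± 103 became 467 over the other 3 libraries. Cd163, the haptoglobin-haemoglobin scavenger receptor, was measured at 240, 290, 420 and 325 RPKM, and Lyve1, a hyaluronan receptor of tissue-resident macrophages, at 146, 137, 218 and 155 RPKM. Cx3cr1 itself was the lowest of the 6, with 48.0, 59.1, 60.2 and 68.7 RPKM. Its mean of 59.0 ± 8.51 RPKM placed it 684th of all listed genes.

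All 20 members of a pan-macrophage list were at 10 RPKM or more, and 17 of them at 100 RPKM or more, with a median of 401 RPKM against 4.46 RPKM over all listed genes. A list of resident LYVE1-type macrophage genes had all 20 members listed, 16 at 10 RPKM or more, with a median of 140 RPKM. Within it the range was wide, from 2753 RPKM for Sepp1, the selenium carrier selenoprotein P, to 3.69 RPKM for the lectin Cd209d and less for its relative Cd209g. The efferocytosis receptor Timd4 and the folate receptor Folr2, both used to mark long-lived resident macrophages, stood at 13.1 ± 3.01 and 42.2 ± 10.2 RPKM. Gata6, the factor of large peritoneal macrophages, was not listed, and the 10 listed genes of the peritoneal list had a median of 1.09 RPKM. A list of mucosal macrophage genes had 9 of 10 members listed, 5 at 10 RPKM or more. Its median was 11.3 RPKM, with values from 0.620 RPKM to 33.1 RPKM for Cd63.

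Markers of other cell types were lower, with some exceptions. In bulk libraries, fewer cells of a type and less RNA per cell cannot be told apart. Of 10 enteric neuron markers 2 were listed (Elavl4 at 0.613 and Stmn2 at 0.601 RPKM), while Tubb3, Uchl1, Ret, Nos1 and Chat were not. Of 8 enteric glia markers 4 were listed, none above 1.04 RPKM, and Sox10 and Gfap were not listed. Mesothelium markers had a highest value of 0.982 RPKM (Krt8). Smooth muscle genes were present at a median of 5.66 RPKM, led by the actins Acta2 (11.5, 12.5, 30.5 and 24.4 RPKM) and Actg2 (14.4, 10.2, 22.6 and 27.5 RPKM), with Sham 3 and Sham 4 above Sham 1 and Sham 2 for both. Blood endothelium markers had a median of 3.32 RPKM and fibroblast markers of 1.26 RPKM, and both were highest in Sham 2, where Cdh5 reached 15.8 RPKM and Dcn 9.92 RPKM.

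B and plasma cell, monocyte and neutrophil lists had their highest scores in Sham 1. The B and plasma cell list, with 10 of 10 members listed, scored 1.74 in Sham 1, 0.26 in Sham 2, -0.37 in Sham 3 and -1.63 in Sham 4, where a score averages log2(CPM + 1) across the listed members and is centred on the 4 libraries. Its members summed to 3815, 1159, 695 and 488 CPM. Igkc, the kappa light chain constant region (chr6:70726435-70726966), was measured at 3953, 526, 322 and 28.5 RPKM, a 138-fold range. Ighm, the mu heavy chain constant region, did not share that order. It stood at 251, 368, 205 and 221 RPKM, highest in Sham 2, or 473, 694, 386 and 418 CPM. The monocyte list, with 12 of 12 members listed, scored 0.73 in Sham 1 and -0.16 to -0.29 in the others, and its members summed to 2922 CPM in Sham 1 against 1218 to 1381 CPM. The neutrophil list scored 0.88 in Sham 1 and -0.12 to -0.57 in the others. Its 7 listed of 10 members summed to 190 CPM in Sham 1, the lowest of the 4, and Ly6g, Camp and Ltf were not listed. S100a9, a granulocyte and monocyte alarmin, ran at 55.8, 0.343, 2.40 and 3.66 RPKM, whereas Mmp9, a gelatinase, ran at 17.5, 34.6, 37.7 and 35.7 RPKM. T and NK cell genes scored 0.67 in Sham 1 and 0.59 in Sham 2, against -0.78 and -0.48 in Sham 3 and Sham 4, with the granzyme Gzma highest at 48.4 RPKM. The part of these cells in any other value was not tested. The pan-macrophage list scored -0.25 in Sham 1, the lowest of the 4, against -0.01 to 0.16 in the others. The mast cell list had its highest score, 1.12, in Sham 2, with Cma1, a mast cell chymase, at 34.5 RPKM against 2.35 to 5.99 RPKM elsewhere. The plot of marker lists by library shows these scores side by side.

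**Figure D1:**
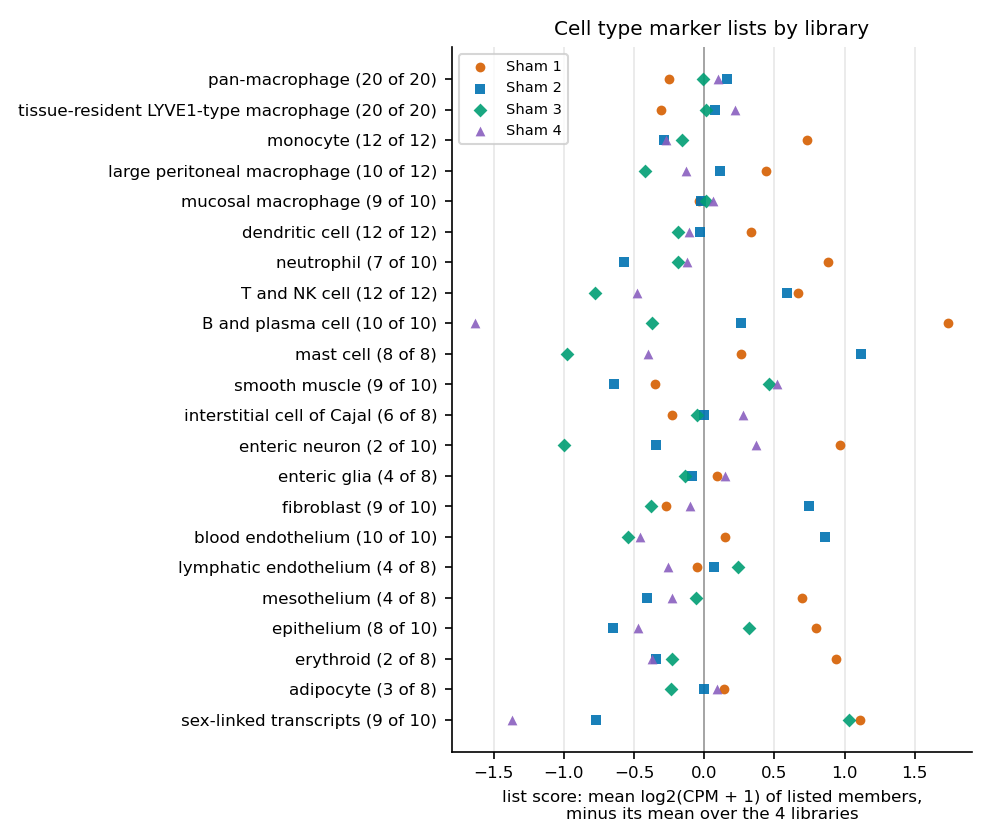
Score of each cell type marker list in each sham library (x axis, log2 units, log2(CPM + 1) averaged across the listed members and centred on the 4 libraries; in brackets, listed of all members). Sham 1 lies at 1.74 for B and plasma cells and at 0.73 for monocytes, while the pan-macrophage and tissue-resident lists span 0.41 and 0.53 between libraries.

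Of the listed genes 13994 were at 1 RPKM or more, 10717 of them protein-coding, and 4912 were at 10 RPKM or more. At least 100 RPKM was reached by 394 genes and at least 1000 RPKM by 36. The 50 most abundant genes took 19.8% of the counts on average, from 18.7% in Sham 4 to more in Sham 3, Sham 2 and Sham 1, in that order. Leaving aside mitochondrially encoded, ribosomal protein and small or structural RNA genes, the first 30 comprised 24 protein-coding genes, 3 pseudogenes and 3 others, and 29 of the 30 were among the 60 highest in each of the 4 libraries.

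Lyz2, the lysozyme of myeloid cells (chr10:117277331-117282321), headed that order at 7169, 9342, 7488 and 7262 RPKM. Its near-identical neighbour Lyz1 (chr10:117287797-117292868) was at 377, 133, 49.8 and 84.2 RPKM, and reads shared by the pair could have been assigned to either gene. Lyz1 was highest in Sham 1, at 4.23 times the mean of the others, whereas Lyz2 was lowest there. What shared reads or other cell types added to Lyz1 was not tested. B2m, the class I light chain, stood at 6055, 8203, 3949 and 5154 RPKM, highest in Sham 2 and lowest in Sham 3. Tmsb4x, an actin-binding peptide, was at 4878 ± 674 RPKM and Actb, cytoplasmic beta actin, at 1591 ± 133 RPKM. Tyrobp and Fcer1g, the signalling adaptors that Fc and activating lectin receptors share, followed at 1497 ± 250 and 856 ± 251 RPKM. The lysosomal protease Ctss, which trims the invariant chain, was measured at 1393 ± 341 RPKM.

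Some of the first 30 are uncertain. The processed pseudogenes Gm14303 (5184 ± 832 RPKM), Tpt1-ps3 (1900 ± 451 RPKM) and Gm4149 (922 ± 259 RPKM) and the predicted noncoding gene Gm10076 (1060 ± 231 RPKM) have 171, 519, 276 and 384 bases of exon. Processed pseudogenes are copies of spliced transcripts, so their reads cannot be told apart from those of near-identical genes. Igkc entered the order with a mean of 1207 RPKM that rested on Sham 1, and without that library its mean was 292 ± 250 RPKM. The plot of the most abundant genes shows Igkc as the gene with by far the widest range between libraries.

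**Figure D2:**
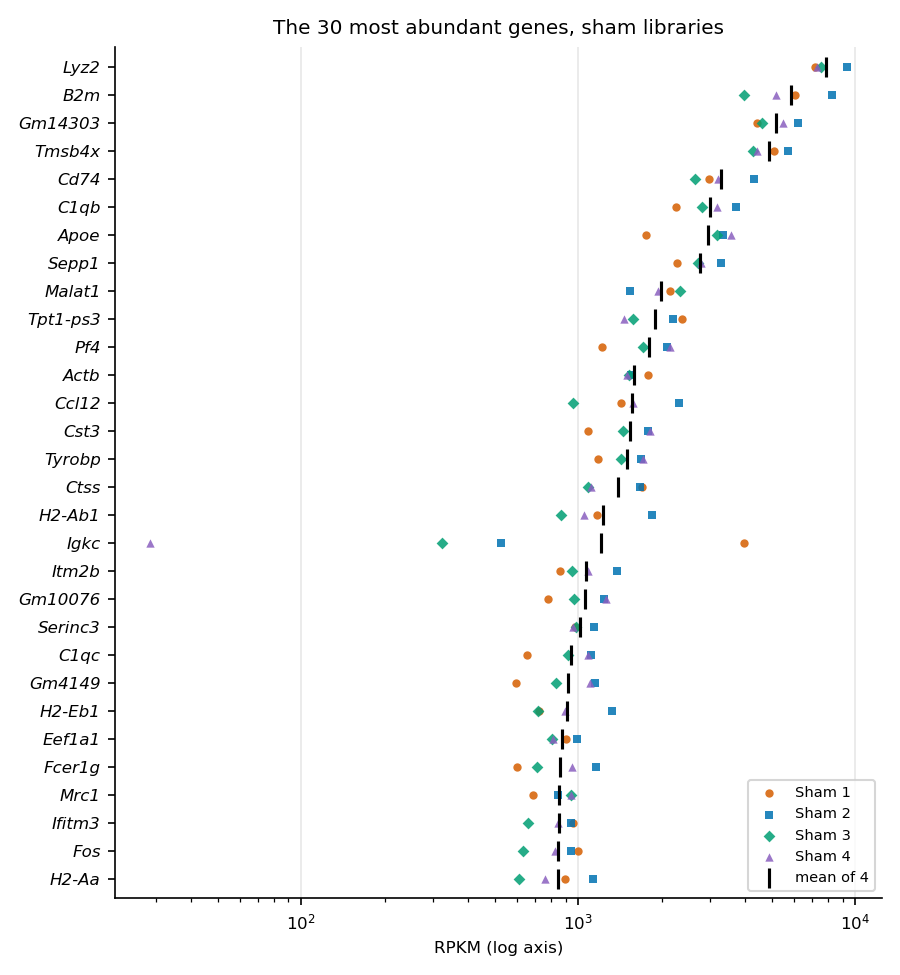
The 30 most abundant genes outside mitochondrially encoded, ribosomal protein and small RNA genes, one row per gene, with RPKM in each sham library (coloured marks, log axis) and the mean (black bar). Lyz2 leads with 7815 RPKM on average, and Igkc ranges from 28.5 RPKM in Sham 4 to 3953 RPKM in Sham 1.

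Genes of class II antigen presentation were abundant. All 14 members of its list were at 1 RPKM or more, 11 at 10 RPKM or more and 6 at 100 RPKM or more, with a median of 89.0 RPKM. Of all 17127 genes with a length, 13994, 4912 and 394 reached these levels, with a median of 4.46 RPKM. The chains H2-Ab1, H2-Eb1 and H2-Aa stood at 1232 ± 424, 914 ± 287 and 847 ± 219 RPKM. H2-Ab1 read 1167, 1841, 870 and 1050 RPKM in the 4 libraries, so that Sham 2 was highest, as it was for H2-Eb1, H2-Aa and Cd74. The peptide loading chaperones H2-DMa and H2-DMb1 were at 85.4 ± 22.2 and 104 ± 26.4 RPKM, and the master regulator Ciita at 17.3 ± 1.40 RPKM. Of the costimulators, Cd86 was at 92.6 ± 12.1 RPKM, Cd80 at 7.84, 8.06, 11.4 and 12.7 RPKM and Cd40 at 3.54 ± 1.66 RPKM, an order that held in every library. Dendritic cell markers, which share this program, had a median of 3.37 RPKM, with 4 of 12 at 10 RPKM or more. Sirpa stood at 133 ± 23.1, Cd209a at 57.1 ± 23.7 and Batf3 at 16.9 ± 3.34 RPKM, while Zbtb46 was at 3.32 and Flt3 at 3.15 RPKM. The share of dendritic or B cells in the class II level was not tested.

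Class I genes were listed with all 16 members and a median of 44.4 RPKM. H2-D1 and H2-K1, the classical heavy chains, stood at 613 ± 146 and 405 ± 98.8 RPKM. The H2-Q genes are close copies of each other, so their values (52.3 RPKM for H2-Q4, 24.4 for H2-Q6 and 18.5 for H2-Q7) are uncertain.

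The lysosome list had 19 of 20 members at 10 RPKM or more and 15 at 100 RPKM or more, with a median of 165 RPKM. After Ctss came the protease Ctsc (536 ± 73.3 RPKM), the membrane proteins Lamp1 (447 ± 41.9 RPKM) and Cd68 (430 ± 48.1 RPKM) and the protease Ctsb (419 ± 56.5 RPKM), of which neighbours overlapped. The protease Ctsd was at 236 ± 52.0 RPKM. The lysosomal precursor Psap was at 290, 311, 313 and 305 RPKM and differed by little between libraries. Iron storage was represented by the ferritin chains Fth1 (626 ± 107 RPKM) and Ftl1 (612 ± 131 RPKM). Heme oxygenase Hmox1, which opens the heme ring, was at 50.8, 51.0, 52.5 and 55.3 RPKM, and the iron exporter Slc40a1 at 15.8 ± 4.21 RPKM.

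Receptors numbered 375 listed genes by a symbol pattern, of which 291 were at 1 RPKM or more, 144 at 10 RPKM or more and 34 at 100 RPKM or more. Over all 17127 genes with a length these counts were 13994, 4912 and 394. The median was 4.81 RPKM for all listed receptors, against 4.46 RPKM over all listed genes. For those at 1 RPKM or more it was 9.30 RPKM, against 6.30 RPKM over all genes at that level. Mrc1, the mannose receptor CD206 (chr2:14229392-14332057), came first at 685, 842, 942 and 945 RPKM. It was above the next receptor, a ligand of an inhibitory natural killer cell receptor, Clec2d (464, 548, 397 and 594 RPKM), in all 4 libraries with no overlap of their values. Below Mrc1 no pair of neighbours among the first 20 was separated in that way: only 1 of 19 neighbouring pairs kept its order in all 4 libraries. The positions of Fcgr3 (440 ± 64.7 RPKM), Adgre1 (425 ± 86.4 RPKM), Csf1r (417 ± 103 RPKM) and Fcrls (407 ± 90.8 RPKM) were thus not distinguishable. By the longest transcript the first 5 were the same genes, and by the median transcript length Csf1r, Adgre1, Mrc1, Stab1 and Sirpa led.

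Fc receptors bind antibodies, and 7 of 9 listed members were at 10 RPKM or more. After the adaptor Fcer1g, the activating Fcgr3 and the Fc receptor-like Fcrls, the inhibitory Fcgr2b stood at 138 ± 11.9, Fcgr4 at 120 ± 14.4 and the high-affinity Fcgr1 at 92.4 ± 18.4 RPKM. Fcgr4 exceeded Fcgr1 in all 4 libraries. The mast cell receptor chain Fcer1a was at 2.04, 10.3, 0.628 and 2.00 RPKM, highest in Sham 2, as were the mast cell proteases Cpa3, Mcpt4, Cma1 and Tpsb2.

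Toll-like receptors sense microbial products. At 1 RPKM or more were 13994 of the 17127 genes with a length. All 20 genes of a list of Toll-like receptors and their adaptors were at that level, with a median of 34.6 RPKM against 4.46 RPKM over all listed genes. Endosomal receptors were the 3 highest of them: Tlr7, which binds single-stranded RNA, stood at 226, 242, 233 and 206 RPKM, Tlr13, which binds bacterial ribosomal RNA, at 97.2, 110, 111 and 97.6 RPKM, and Tlr8 at 73.1, 79.3, 85.2 and 74.1 RPKM. Tlr7 was above Tlr13, and Tlr13 above Tlr8, in every library. Unc93b1, the chaperone that carries these receptors to endosomes, was at 175 ± 37.8 RPKM. The lipopolysaccharide receptor Tlr4 stood at 58.3 ± 3.80 RPKM, with its partners Cd14 (156 ± 38.4 RPKM) and Ly96 (80.4 ± 26.5 RPKM). Tlr1, Tlr4 and Tlr2 (52.6 ± 8.34 RPKM) overlapped. The lowest were Tlr11 at 4.54 and Tlr12 at 4.49 RPKM.

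Scavenger and clearance receptors were headed by Mrc1, Cd68 (430 ± 48.1 RPKM), Cd163 and Cd36, which takes up oxidised lipoproteins and fatty acids. Cd36 was at 356, 352, 212 and 226 RPKM, with Sham 1 and Sham 2 above Sham 3 and Sham 4. Stab1, a receptor for phosphatidylserine and matrix debris, was at 94.0, 154, 219 and 220 RPKM, in Sham 1 at 0.475 times the mean of the other 3 (198 ± 38.1 RPKM). Of the TAM kinases that bind dying cells, Mertk was at 84.7 ± 23.1 RPKM, Axl at 80.7 ± 6.12 RPKM and Tyro3 was not listed. Msr1 stood at 67.8 ± 4.90 RPKM, Marco at 1.16 ± 0.701 RPKM and Stab2 at 0.150 ± 0.0997 RPKM.

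Among cytokine receptors all 27 genes of the list were listed and 21 were at 10 RPKM or more. The interferon gamma receptor chain Ifngr1 stood at 172, 185, 167 and 174 RPKM, and its partner Ifngr2 at 37.1 ± 5.84 RPKM. The transforming growth factor receptors Tgfbr1 and Tgfbr2 were at 87.3 ± 8.11 and 56.7 ± 8.95 RPKM. The interleukin-10 receptor chains Il10ra (60.3 ± 7.49 RPKM) and Il10rb (46.0 ± 9.78 RPKM) and the interleukin-4 receptor Il4ra (29.7 ± 3.28 RPKM) were present in every library. Tnfrsf1b, a tumour necrosis factor receptor, was among the steadiest at 42.2, 41.5, 43.2 and 40.9 RPKM. The interleukin-1 receptor Il1r1 was at 0.819 ± 0.115 RPKM. Of the receptors for bone morphogenetic proteins, Bmpr2 stood at 25.4 ± 2.70 and Bmpr1a at 5.61 ± 0.672 RPKM.

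Chemokine receptors were listed in 17 of 24 cases, with Ccr1, Ccr2 and Cx3cr1 highest. Ccr2, which marks monocytes and cells recently derived from them, was at 188, 96.5, 73.0 and 79.2 RPKM. Sham 1 held 2.26 times the mean of the other 3 (82.9 ± 12.2 RPKM), and Fn1, a fibronectin gene on the monocyte list (111, 45.7, 59.1 and 42.6 RPKM), was highest in the same library. Ccr1 was at 142, 97.9, 99.3 and 103 RPKM, again highest in Sham 1. Whether monocytes contributed to these values was not tested. Cxcr4 stood at 17.6 ± 5.39 RPKM, and Ccr7, which guides cells to lymph nodes, at 1.37 ± 0.862 RPKM.

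Of receptors for neural signals, the adrenergic receptor Adrb1 was at 5.34 ± 1.96 RPKM and Adrb3 was not listed. Calcrl and Ramp1, which together form the receptor for calcitonin gene-related peptide, were at 21.8 ± 1.64 and 7.58 ± 1.98 RPKM. The nicotinic subunit Chrna7, the muscarinic receptor Chrm3, the substance P receptor Tacr1 and the vasoactive intestinal peptide receptor Vipr2 were not listed, and Vipr1 stood at 0.246 ± 0.236 RPKM. In all, 13 of 24 genes of this list were listed.

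Purine receptors, which sense nucleotides released by damaged or active cells, were represented by P2ry12 (91.9, 116, 98.3 and 115 RPKM), P2ry6 (95.1 ± 19.0 RPKM), the ATP-gated channels P2rx7 (66.4 ± 15.4 RPKM) and P2rx4 (34.3 ± 4.77 RPKM), and P2ry13 (48.4 ± 4.82 RPKM). Entpd1, the ectoenzyme CD39 that degrades ATP, was at 61.6 ± 13.6 RPKM and Nt5e, the enzyme CD73 that makes adenosine, at 0.737 ± 0.492 RPKM. Of the integrins, Itgam (CD11b) stood at 164, 174, 154 and 163 RPKM, its partner Itgb2 at 87.8 ± 11.7, and Itgax (CD11c) at 9.08 ± 0.831 RPKM. Itgb1 was at 82.6, 86.9, 83.8 and 85.3 RPKM.

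**Figure D3:**
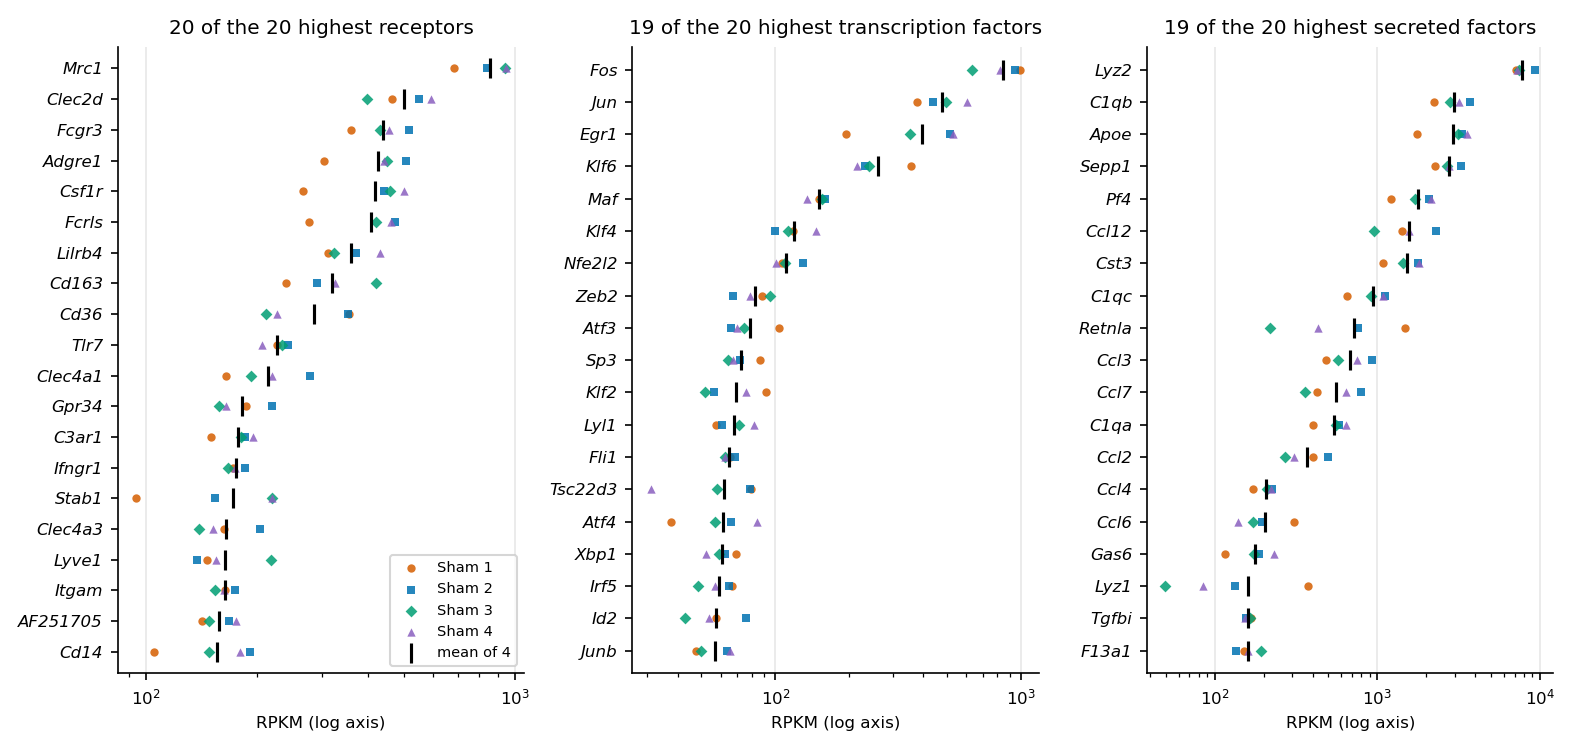
RPKM (log axis) of 20, 19 and 19 of the 20 highest receptors, transcription factors and secreted factors in each sham library (coloured marks) with the mean (black bar). Mrc1, Fos and Lyz2 lead the 3 classes, and Sham 1 lies lowest for Csf1r, Stab1 and Apoe.

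Transcription factors numbered 336 listed genes, of which 272 were at 1 RPKM or more, 115 at 10 RPKM or more and 8 at 100 RPKM or more. Over all 17127 genes with a length these counts were 13994, 4912 and 394. The median was 5.84 RPKM over the listed factors and 8.16 RPKM over those at 1 RPKM or more, against 4.46 and 6.30 RPKM over all genes. Fos, an AP-1 subunit, stood first at 995, 942, 632 and 821 RPKM, above its partner Jun (379, 439, 494 and 601 RPKM) in all 4 libraries with no overlap. Egr1 was at 194, 516, 352 and 528 RPKM, lowest in Sham 1, and Klf6 at 358, 231, 240 and 215 RPKM, highest in Sham 1. Fos also led by the median and by the longest transcript length, whereas Zeb2, Mef2c and Tcf4 entered the first 5 when the median length was used.

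Of 20 listed genes among the AP-1 and immediate early factors, 14 were at 10 RPKM or more and 7 at 100 RPKM or more. The phosphatase Dusp1 was at 483 ± 66.7 RPKM, the RNA-decay factor Zfp36 at 254 ± 48.5 RPKM and the antiproliferative Btg2 at 205 ± 38.2 RPKM. Ier3 ran at 42.9, 120, 89.0 and 140 RPKM, with its lowest value in the library where Egr1 was lowest. Other members were low: Nr4a1 stood at 4.36 ± 1.15 RPKM, Egr3 at 0.236 ± 0.203 RPKM, and Fosl1 was not listed. A list of genes known to respond to tissue dissociation, which shares Fos, Jun, Egr1, Atf3, Junb, Ier2 and Dusp1 with it, had 14 of 15 members at 10 RPKM or more and a median of 56.6 RPKM. In that list the heat shock genes Hspa1a and Hspa1b were at 20.2 ± 6.01 and 13.9 ± 8.93 RPKM. Its scores lay between -0.16 and 0.08, and what dissociation added to the levels of immediate early genes was not tested.

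Of 26 listed macrophage lineage factors, 17 were at 10 RPKM or more. Maf, a factor of resident macrophages, stood at 150 ± 11.4 RPKM. Klf4 (119 ± 19.4 RPKM), the oxidative stress factor Nfe2l2 (111 ± 12.5 RPKM), Zeb2 (82.3 ± 12.3 RPKM) and Klf2 (69.0 ± 18.4 RPKM) followed. Spi1, which encodes PU.1, was at 44.0, 55.6, 46.6 and 55.4 RPKM, close to Runx1 (51.4 RPKM) and Mef2c (49.3 ± 6.18 RPKM). The interferon regulatory factors Irf5 and Irf8 were at 59.2 ± 8.27 and 23.2 ± 2.36 RPKM. Spic, the factor of red pulp macrophages, stood at 3.61, 4.62, 7.26 and 9.69 RPKM, and Pparg at 7.77 ± 2.61 RPKM. Sall1, the factor of microglia, was not listed, nor was Gata6. This list differed little between libraries, with scores from -0.04 to 0.07.

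Secreted factors numbered 227 listed genes, of which 157 were at 1 RPKM or more, 67 at 10 RPKM or more and 25 at 100 RPKM or more. Of all 17127 genes with a length, 13994, 4912 and 394 reached these levels. The median of the secreted factors was 2.24 RPKM, below the 4.46 RPKM of all listed genes. For those at 1 RPKM or more it was 6.06 RPKM, against 6.30 RPKM. The 5 highest (Lyz2, C1qb, Apoe, Sepp1 and Pf4) made up 63.0% of the summed RPKM of the class, against 36.3% for the 5 highest transcription factors and 21.2% for the 5 highest receptors. By the median transcript length Sepp1 led, and the first 5 held the same genes. By the longest transcript 4 of the 5 were shared and Cst3 took the place of Pf4. Apoe, the lipid carrier apolipoprotein E, was at 1751, 3322, 3156 and 3548 RPKM, lowest in Sham 1, and its mean of 2944 ± 811 RPKM was 3342 ± 197 over the other 3 libraries. Sepp1 was at 2270, 3265, 2701 and 2776 RPKM, and Cst3, the protease inhibitor cystatin C, at 1085, 1786, 1446 and 1811 RPKM.

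Bases ahead of the start site are shown for Pf4 and Sepp1, both among the 5 highest secreted factors, because their windows hold a motif of the PU.1 type and PU.1 is encoded by Spi1, described above. The motif searched was GAGGAAGT, or ACTTCCTC on the other strand, within 300 bases around each start in RefSeq windows of GRCm38.p6. It occurred in 3.20% of all 32851 windows. Of the 20 highest secreted factors 15 had a window and 6 of their 20 windows held the motif. These windows are not independent, since overlapping windows of Sepp1 hold the same copy. In the 250 bases before the start, the genes with the motif were C1qc, Pf4, Retnla and Sepp1. For receptors 13 of 20 genes had a window and for transcription factors 16 of 20, and none of their 15 and 22 windows held it. Since under 80% of the secreted factors and receptors were matched, a comparison with the share over all windows is void. The 250 bases before the start are printed 5′ to 3′ in the direction of the gene, with the motif in capitals, for Pf4 (chr5:90772185-90772434, plus strand) and Sepp1 (chr15:3270517-3270766, plus strand). The motif begins 10 bases before the start in Pf4 and 181 in Sepp1, and in both it lies on the strand opposite to the gene, as ACTTCCTC. A match is a description of letters and not a bound site.
Pf4: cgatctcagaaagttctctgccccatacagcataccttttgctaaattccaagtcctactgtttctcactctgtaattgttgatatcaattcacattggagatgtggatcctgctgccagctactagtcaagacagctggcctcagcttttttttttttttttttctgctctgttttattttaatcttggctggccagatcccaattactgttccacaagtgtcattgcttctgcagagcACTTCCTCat
Sepp1: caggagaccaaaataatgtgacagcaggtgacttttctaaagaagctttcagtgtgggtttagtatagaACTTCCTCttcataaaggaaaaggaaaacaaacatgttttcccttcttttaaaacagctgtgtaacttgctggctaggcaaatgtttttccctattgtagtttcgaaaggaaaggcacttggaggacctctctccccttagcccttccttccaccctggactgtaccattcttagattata

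Complement genes were headed by the C1q chains, which recognise antibody complexes and dying cells. C1qb stood at 2246, 3713, 2799 and 3177 RPKM, C1qc at 651, 1111, 919 and 1081 RPKM and C1qa at 400, 578, 559 and 642 RPKM. The 3 genes lie side by side on chromosome 4, and the order C1qb above C1qc above C1qa was kept in every library. All 3 were lowest in Sham 1. Properdin (Cfp), which stabilises the alternative pathway convertase, was at 128 ± 10.2 RPKM. Downstream components were lower, with C3 at 11.1 ± 1.52, C2 at 2.60 ± 0.938 and C1s1 at 0.350 ± 0.184 RPKM, and Cfb was not listed. The anaphylatoxin receptors C3ar1 and C5ar1 stood at 178 and 93.6 RPKM.

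Chemokines were listed in 24 of 25 cases, 14 of them at 10 RPKM or more and 10 at 100 RPKM or more. Pf4 (CXCL4), best known from platelets and also made by resident macrophages, stood at 1222, 2083, 1716 and 2152 RPKM. The monocyte attractants Ccl12 (1430, 2307, 958 and 1574 RPKM), Ccl7 (425, 790, 362 and 645 RPKM) and Ccl2 (401, 497, 269 and 308 RPKM) lie within 1 stretch of chromosome 11 and shared an order, Ccl12 above Ccl7 above Ccl2, in all 4 libraries. For each of the 3, Sham 2 was highest and Sham 3 lowest. Ccl3 was at 483, 923, 576 and 756 RPKM and its neighbour Ccl4 at 171, 225, 211 and 223 RPKM. Ccl6 and Ccl9 (203 ± 73.1 and 149 ± 51.5 RPKM) were highest in Sham 1. Mouse CC chemokines of this cluster are similar to each other, so the split of reads between Ccl2, Ccl7 and Ccl12 is uncertain. The eosinophil attractants Ccl24 and Ccl11 were lower, with Ccl24 at 14.3, 8.99, 20.1 and 12.8 RPKM and Ccl11 at 4.75 ± 1.11 RPKM. Fractalkine itself, Cx3cl1, was at 7.61 RPKM in Sham 1 and under 1 RPKM in the others, with 0.934 RPKM in Sham 2.

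Cytokines had a median of 3.22 RPKM against 38.4 RPKM for chemokines, and none of the 19 listed of 27 reached 100 RPKM. Tnf was at 20.7, 55.7, 37.4 and 44.9 RPKM and Il1b at 37.1 ± 8.73 RPKM, and the pair overlapped. Il15 (29.7 ± 1.21 RPKM) and Il18 (22.4 ± 1.69 RPKM) varied little, and Il10 stood at 2.74, 4.65, 2.31 and 2.37 RPKM. Il6, Il12a, Il12b, Ifnb1, Csf2 and Csf3 were not listed, which says only that they missed the table's filter.

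Growth factors were listed in 20 of 26 cases, with Grn (progranulin) at 160 ± 41.8 RPKM and Igf1 at 37.9, 57.1, 50.8 and 57.2 RPKM. Bmp2, the bone morphogenetic protein by which muscularis macrophages are known to act on enteric neurons, ran at 14.8, 18.1, 16.2 and 19.1 RPKM. Pdgfb was at 9.40 ± 1.48 and Hgf at 7.02 ± 1.67 RPKM. Bdnf and Gdnf, which act on neurons, were not listed. Vegfa stood at 0.150, 0.178, 1.40 and 0.180 RPKM, so that its mean rested on Sham 3.

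Genes used to mark alternative activation included abundant and scarce members. Besides Mrc1 and Cd163, the lectin Mgl2 was at 133 ± 22.5 RPKM. Retnla, a secreted resistin-like protein that interleukin-4 induces, was at 1473, 762, 220 and 435 RPKM, a 6.69-fold range, and without Sham 1 its mean of 723 ± 548 RPKM was 472 ± 273 RPKM. Arg1 stood at 5.42 ± 3.10 and Chil3 at 15.7 ± 10.7 RPKM. Of 13 listed genes used to mark classical activation, 8 were at 10 RPKM or more, with a median of 14.8 RPKM. For alternative activation these were 12 of 15 and 29.7 RPKM, and over all genes with a length 4912 of 17127 and 4.46 RPKM. The classical list was led by Marcks (247 ± 41.0 RPKM) and Cd38 (106 ± 13.4 RPKM). The nitric oxide synthase Nos2 was at 0.276 ± 0.0719 RPKM and Ptgs2 at 2.55 ± 0.501 RPKM. All 20 interferon-stimulated genes were at 1 RPKM or more, a level that 13994 of all 17127 genes with a length reached. The median of the 20 was 15.2 RPKM, against 4.46 RPKM over all listed genes. They were led by the membrane tether Bst2 (118, 175, 149 and 200 RPKM). Proliferation genes had a median of 4.22 RPKM, with Mki67 at 27.5, 22.4, 25.2 and 41.2 RPKM and Cdk1 at 1.40 ± 0.567 RPKM.

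Ligands and receptors were set side by side for 34 known pairs. In 27 both transcripts were at 1 RPKM or more and in 17 both were at 10 RPKM or more. Taken singly, 13994 and 4912 of all 17127 genes with a length were at these levels. The ligands of Csf1r were scarce: Csf1 was at 1.66, 1.32, 2.58 and 1.61 RPKM and Il34 was not listed, against 417 ± 103 RPKM for the receptor. Gas6, which bridges dying cells to TAM kinases, stood at 116, 188, 175 and 231 RPKM, above Mertk and Axl in all 4 libraries. For Bmp2 the type 2 receptor Bmpr2 was above the ligand and the type 1 receptor Bmpr1a below it in each library. In other pairs the ligand was present while its receptor was scarce, as for Igf1 with Igf1r (2.46 ± 0.646 RPKM), Il1b with Il1r1 and Pdgfb with Pdgfrb (0.0990 ± 0.0584 RPKM). The reverse held for Vegfa with Nrp1 (68.5 ± 5.33 RPKM). C3, at 11.1 RPKM, was below its receptor C3ar1 at 178 RPKM. Transcript levels in 1 population do not show that a pair signals.

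**Figure D4:**
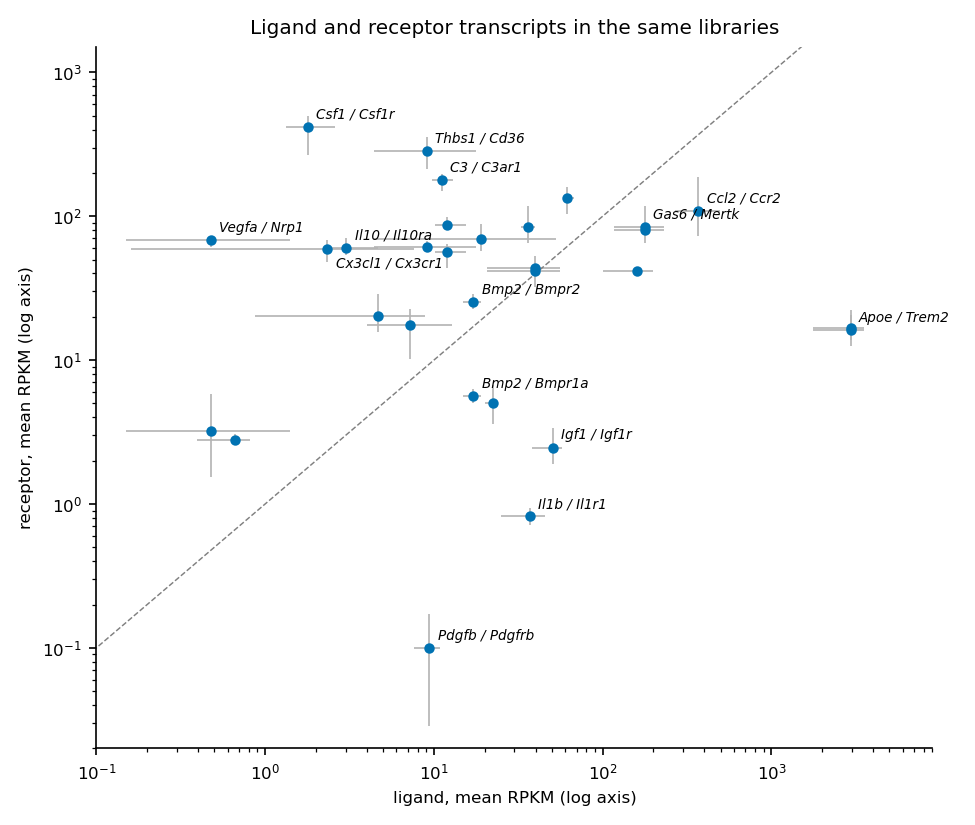
Mean RPKM over the 4 sham libraries of the ligand (x axis) and the receptor (y axis) of the pairs shown, on log axes, with bars from the lowest to the highest library and a dashed line of equal level. Csf1 with Csf1r lies far above the line (1.79 and 417 RPKM) and Pdgfb with Pdgfrb far below it.

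The spread between the libraries was described by the coefficient of variation (CV, the SD over the mean) of the scaled CPM for the 9488 genes with a mean of 10 CPM or more. Its median was 18.1%, with quartiles of 12.3% and 25.5%, against a median of 3.27% that counting alone would give. A CV over 50% was found in 280 genes (2.95%), a CV under 10% in 1580 genes (16.7%), and 1498 genes differed by more than 2-fold between their highest and lowest library. Without Sham 1 the median CV was 14.2% and 170 genes were over 50%. The biological coefficient of variation, fitted by edgeR as 1 common value over the listed genes, those under 10 CPM among them, was 40.7%. It is another measure on another set of genes, and it was 32.6% for genes with at least 10 counts in each library.

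Among genes with a CV over 50%, Sham 1 was the highest library in 169 of 280 (60.4%), while it was highest in 31.8% and lowest in 32.5% of all 9488. Immunoglobulin genes led the order: 9 of the 32 genes with a CV over 100% were of this kind, and the 31 listed immunoglobulin genes took 0.559%, 0.132%, 0.0894% and 0.0492% of the counts. Igha, the heavy chain of mucosal antibody, was at 871, 59.0, 72.6 and 6.07 RPKM, and Jchain, which joins antibody units, at 404, 24.7, 27.5 and 2.17 RPKM. Others of the 32 were the B cell genes Pou2af1, Pax5, Ms4a1 and Ikzf3, the 4 Y-linked genes Ddx3y, Eif2s3y, Kdm5d and Uty, and Spp1, osteopontin, which was at 9.74, 8.51, 53.0 and 4.41 RPKM. The lipase Lpl, also among them, was at 57.9, 9.70, 10.2 and 10.4 RPKM.

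The lowest CVs are the low end of 9488 values, each taken over 4 libraries. Otud5, a deubiquitinase, had the lowest CV at 0.231%, with 17.8, 17.7, 17.8 and 17.8 RPKM. It was followed by the mitochondrial trifunctional protein subunit Hadha, the protein-coding gene BC004004 and the transcription factor Irf2 (14.6 ± 0.148 RPKM). The CVs of these genes, 0.231% to 1.01%, lay below the median of 3.27% that counting alone would give. Such values do not show that these genes are steadier than others with a low CV. Among abundant macrophage genes the matrix protein Tgfbi (167, 157, 166 and 153 RPKM) had a CV of 4.27%, Ifngr1 of 4.45%, Itgam of 4.91% and Tlr7 of 6.67%. Over the classes, the median CV was 18.2% for transcription factors, 20.5% for receptors and 27.2% for secreted factors, beside 18.1% for all genes. A CV over 50% was found in 9 of 243 transcription factors, 26 of 234 receptors and 20 of 96 secreted factors at 10 CPM or more. Over all genes at that level it was found in 280 of 9488 (2.95%).

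**Figure D5:**
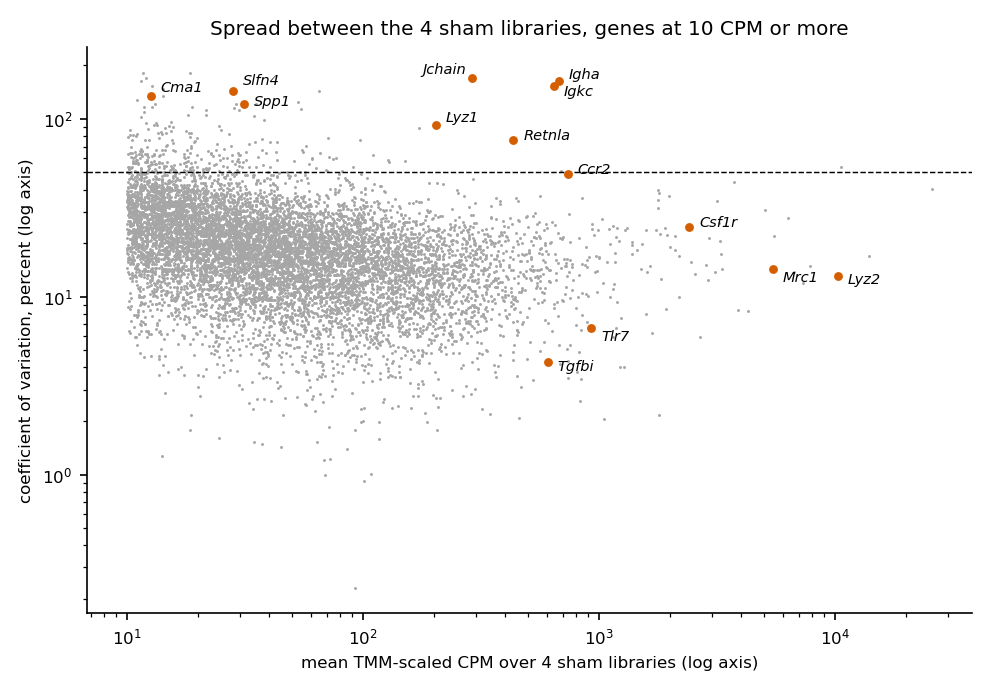
Coefficient of variation over the 4 sham libraries (y axis, percent) against the mean scaled CPM (x axis), both on log axes, one point per gene with a mean of 10 CPM or more, with a dashed line at 50%. Igkc, Igha and Jchain lie above 100%, while Lyz2, Mrc1, Tlr7 and Tgfbi lie under 20%.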

How the data were processed

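RNA-seq was measured in 7 samples, and the 4 sham samples were analysed, grouped by their titles. The deposited table gives raw counts per gene. Per the submitters' processing notes, STAR, featureCounts and limma were used with GRCm38 (mm10). No annotation release, parameter or strand setting is given in the sources used here. Its 17209 genes all exceed 0.5 CPM in 4 or more of the 7 libraries, and a gene that is not listed may still be expressed. The deposited CPM columns equal count over total within 0.000500 and were used only for that check. The deposited log2 fold changes and p-values of the authors' comparison were not used.

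Counts were scaled by TMM in edgeR 4.0.16 (R 4.3.3), over the sham libraries alone. RPKM used union exon lengths from GENCODE M21, which held 17127 of the IDs (99.5%), and 82 genes had no length. Classes were set by symbol patterns, and 47 gene lists were used, plus 1 microglia-associated list added after the data were seen. Members and lists were chosen with earlier results of these data known. Named genes were the 30 most abundant, the 20 highest of each class, the 3 highest of each list, the sorted-cell markers, the 12 highest and 12 lowest by CV, and ligand and receptor pair members. Others are list members picked after their values were seen. CVs used genes of at least 10 CPM. With titles that do not name animals, the spread is that between these samples and may be partly technical. The procedures were tested on simulated data. In all 14 other settings were tried one at a time, with DESeq2 1.42.0 size factors among them. No test was made, since there was 1 group. Promoter windows came from RefSeq (GRCm38.p6). Some genes are not reported here and are left out of the plots and of the list of outlying values.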

Additional observations from a re-analysis of the deposited data

Results flagged for a closer look

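Among 225 genes chosen by rule, 24 had 1 library set apart from the other 3, with a gap that chance alone gives in about 1 in 20 groups of this size. The gap was judged against the range of the 4 values, so the difference itself can be small. Of these 24 genes, 10 were among the 12 chosen for the highest CV over the same libraries, a choice that favours such gaps. The other 213 genes held 14 (6.57%), beside 539 of all 9488 genes at 10 CPM or more (5.68%). The outlying library was Sham 1 in 16 genes, Sham 2 in 6, Sham 3 in 2 and Sham 4 in 0.

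Antibody genes accounted for many of those in Sham 1. Igkc reached 3953 RPKM there, Igha 871 and Jchain 404 RPKM. The variable segments Igkv1-117, Igkv10-96, Ighv1-53, Iglv1 and Igkv1-110 stood at 171, 122, 120, 115 and 99.0 RPKM. Myeloid genes with a high Sham 1 value were S100a9 at 55.8 RPKM, Slfn4, an interferon-responsive gene, at 22.4 RPKM, and the chemokine receptor Ccr1 at 142 RPKM. Actb at 1788, the transcription factor Klf6 at 358, the receptor Tgfbr1 at 99.4 and the chemokine Cx3cl1 at 7.61 RPKM were also highest in Sham 1. Mmp9 was the gene with an outlying low value there, at 17.5 RPKM.

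In Sham 2 the vascular genes Cdh5 and Egfl7 stood apart at 15.8 and 6.59 RPKM, the fibroblast gene Dcn at 9.92 RPKM and the mast cell protease Cma1 at 34.5 RPKM. Lyz2 at 9342 RPKM and Serinc3, a membrane protein, at 1140 RPKM were outlying there by the same rule. The size was modest for Lyz2, at 7169 to 7488 RPKM in the others, with a CV of 13.1%. In Sham 3 the outlying values were those of Spp1 at 53.0 RPKM and Vegfa at 1.40 RPKM.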

How the results depend on the processing

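No paired analysis was possible because only 1 group is described. Levels per length depended mainly on the length. Class medians in this section are those of members at a level of 1 or more. With the median transcript length, 1616 genes reached 100 RPKM in place of 394, the medians rose to 16.9 for receptors, 20.8 for transcription factors and 8.85 RPKM for secreted factors, 20 of the 30 most abundant genes and 38 of the 60 highest class members were shared, and 136 of the 229 genes chosen by rule changed by over 1.5 times. With the longest transcript the medians were 10.3 for receptors and 9.83 RPKM for transcription factors. In TPM, 1183 genes reached 100 and the medians were 16.7, 17.5 and 7.50 for receptors, transcription factors and secreted factors. Without mitochondrially encoded genes the 50 highest genes took 16.1% of the counts and the transcription factor median was 8.55 RPKM, and with the median over libraries it was 8.50 RPKM. The biological coefficient of variation was 32.6% for genes with at least 10 counts in each library.

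Leaving out each library in turn gave 35.6% to 42.5% for the biological coefficient of variation and 170 to 359 genes with a CV over 50%, both lowest without Sham 1. It gave secreted factor medians of 4.90 to 6.95 RPKM, lowest without Sham 2. Without Sham 1, 19 of these 229 genes changed by over 1.5 times. Other scalings (no factors, upper quartile, DESeq2) moved no named gene by 1 SD. Genes near the limit of 3 counts are the least precise.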

Other observations

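Genes best known from microglia, the macrophages of the brain, were looked at after the values above had been seen. Of 12 such genes 10 were listed, 9 at 10 RPKM or more and 4 at 100 RPKM or more, with a median of 56.0 RPKM. Fcrls, an Fc receptor-like protein, was the highest at 276, 473, 419 and 461 RPKM. Gpr34, a lysophosphatidylserine receptor, followed at 187, 220, 158 and 165 RPKM, then the ADP receptor P2ry12 at 91.9, 116, 98.3 and 115 RPKM. Siglech was at 53.1 ± 12.8 RPKM and Tmem119, a membrane protein used to mark microglia, at 8.94, 21.8, 11.8 and 17.9 RPKM. The extracellular matrix gene Sparc was at 10.6, 20.1, 7.54 and 8.40 RPKM, highest in Sham 2, where fibroblast and endothelial genes were highest too. Sall1, the transcription factor of microglia, and the fructose transporter Slc2a5 were not listed.

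Of 18 lipid handling genes, Apoe and Cd36 were at 100 RPKM or more. The cholesterol exporter Abca1 was at 89.7 RPKM on average and the lipid receptor Trem2 at 16.2 RPKM, while the sterol-sensing receptor Nr1h3 was at 0.876 RPKM. Epithelial genes, of which 8 of 10 were listed, had a median of 1.21 RPKM and summed to 66.8, 16.9, 52.7 and 18.6 CPM in Sham 1 to Sham 4. Of 8 erythroid genes 2 were listed, and the alpha globin genes Hba-a1 and Hba-a2 were not.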
